A study of Mus musculus with 7 samples.

Results

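The comparison described here set every ATAC-seq library of cells given I-BET against every library of cells that were not, in RAW264.7 cells, a mouse macrophage-like line that can turn into osteoclasts. ATAC-seq uses a transposase to cut and tag DNA that is not packed away, so a peak marks open chromatin. Of 7 libraries, 3 came from cells with I-BET (500 nM): 1 of cells given I-BET without RANKL, labelled replicate 2, and 2 of cells given RANKL (50 ng/ml) and I-BET together. The other 4 libraries came from 2 samples of untreated cells and 2 of cells with RANKL (50 ng/ml) and no inhibitor. Treated cells were harvested at 4 h, and no time is given for the untreated cells. All groups are the same cell line with no genetic change named, although the source label reads bone marrow. No label says whether replicates were separate cultures, so the p-values below measure only the spread between these samples, which may be technical. Which I-BET compound was used is not given in the labels.

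The members were chromatin regions open in every library. Joining overlapping or touching peaks of all lists gave 344401 regions on the mouse build mm10, and the 43170 with a peak in all 7 libraries (12.5%) were kept. Their median length was 1312 bp, 27.2% were no more than 1 kb from either end of a protein-coding gene and 66.6% overlapped a gene body. Each library ranked these same regions in 2 ways, and each rank was written as a percentile from 0 to 100 within the library. The fold percentile ranks the region's highest fold, the ratio of its peak's pileup to the local background as the authors' peak caller gave it. The width percentile ranks the bases covered by the library's peaks in the region. A percentile difference is therefore a change of place among shared regions and not a change in the amount of accessible DNA, and a shift of all regions together would leave no trace in it.

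BET proteins such as Brd2 and Brd3 carry bromodomains that hold acetylated lysines on histone tails, and through them bring the elongation factor P-TEFb and the transcription machinery to active promoters and enhancers. I-BET compounds fill the acetyl-lysine pocket and release BET proteins from chromatin. RANKL, the ligand of the receptor Rank (gene Tnfrsf11a), signals through Traf6 to NF-kB and AP-1 and then to Nfatc1, the transcription factor that drives osteoclast genes such as Acp5 and Ctsk. ATAC-seq reads whether DNA is open, not whether BET proteins sit there or whether the gene is transcribed.

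The sequences below are the starts of transcripts that lay inside regions described later, shown so that the DNA behind a rank can be seen. They are RefSeq promoter windows of 300 bases on GRCm38.p6, printed 5′ to 3′ on the strand of the transcript, with motif matches in capitals. The search covered both strands. The AP-1 motif was read as TGANTCA, the site of Fos and Jun dimers. The E-box was read as CACGTG, the site of Myc with its partner Max. For ETS factors the letters were CCGGAAG, and for the myeloid factor PU.1 they were GAGGAAG. Core promoter letters were GGGCGG for the GC box, with CCAAT for the box of that name and TATAAA for the TATA box. None of the matches shown overlap. The first 2 windows lie in regions that ranked higher in fold and in width in every I-BET library, at chr11:6267680-6267979 (minus strand, Ddx56) and chr14:50930800-50931099 (minus strand, Pip4p1). The last 2 lie in regions that ranked lower, the first of them in fold and in width and the second in fold only. The first is at chr6:143220509-143220808 (plus strand, the start of LOC115490444, in the region whose nearest protein-coding gene is Etnk1). The second is at chr19:60144425-60144724 (plus strand, the start of E330013P04Rik, in the region nearest to Fam204a).
Ddx56: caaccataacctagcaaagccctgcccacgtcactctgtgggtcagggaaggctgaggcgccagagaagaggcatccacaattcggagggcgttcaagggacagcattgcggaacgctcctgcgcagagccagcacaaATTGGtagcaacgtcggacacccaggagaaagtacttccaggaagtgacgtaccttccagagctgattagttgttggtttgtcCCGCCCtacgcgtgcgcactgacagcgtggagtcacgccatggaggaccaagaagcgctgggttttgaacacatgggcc
Pip4p1: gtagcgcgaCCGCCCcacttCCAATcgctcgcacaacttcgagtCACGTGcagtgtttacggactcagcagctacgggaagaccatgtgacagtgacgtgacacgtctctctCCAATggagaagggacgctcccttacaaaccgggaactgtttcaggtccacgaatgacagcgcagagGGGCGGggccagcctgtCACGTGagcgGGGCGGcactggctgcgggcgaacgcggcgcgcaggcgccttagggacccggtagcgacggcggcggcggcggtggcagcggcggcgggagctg
LOC115490444: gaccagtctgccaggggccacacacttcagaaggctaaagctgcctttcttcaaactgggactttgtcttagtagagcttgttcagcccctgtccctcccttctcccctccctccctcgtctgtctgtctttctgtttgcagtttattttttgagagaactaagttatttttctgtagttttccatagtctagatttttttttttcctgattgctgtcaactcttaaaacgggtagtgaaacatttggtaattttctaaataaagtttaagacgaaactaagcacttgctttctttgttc
E330013P04Rik: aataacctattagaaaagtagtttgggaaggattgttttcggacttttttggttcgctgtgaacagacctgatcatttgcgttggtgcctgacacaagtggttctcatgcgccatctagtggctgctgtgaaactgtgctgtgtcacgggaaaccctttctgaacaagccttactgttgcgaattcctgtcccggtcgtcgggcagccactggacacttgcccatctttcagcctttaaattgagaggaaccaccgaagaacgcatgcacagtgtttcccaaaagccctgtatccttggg
The Ddx56 window held 1 GC box and 1 CCAAT box, and its GC content was 57.3%. The Pip4p1 window held 2 E-boxes, 3 GC boxes and 2 CCAAT boxes at a GC content of 66.3%. Of 32851 promoter windows of the same length, 35.7% held a GC box, 37.4% a CCAAT box and 7.15% an E-box, and 0.594% held 2 or more E-boxes. Neither of the windows from lower regions matched any searched motif, and their GC contents were 40.7% and 48.7%. AP-1, ETS, PU.1 and TATA box letters occurred in 7.81%, 8.86%, 13.6% and 13.6% of all windows. These matches describe letters in the window and show no binding.

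The libraries resembled each other by replicate number more than by inhibitor. Rank correlations of fold percentiles over the 43170 regions, a description over regions that share their DNA, are given without a test. For 6 pairs of libraries with the same number and opposite sides, they ran from 0.873 to 0.971 with a median of 0.935. For 6 pairs on the same side with different numbers they ran from 0.757 to 0.881, with a median of 0.857. The closest pair was RANKL replicate 2 with RANKL+I-BET replicate 2, at 0.971. Width percentiles showed the same order, with medians of 0.892 for the first kind of pair and 0.845 for the second. The libraries also differed in their peak lists: lists held 117175 to 166369 peaks, inferred background pileup ran from 1.11 (I-BET) to 13.8 (RANKL+I-BET replicate 2), and the share of peaks with a −log10 q of at least 5 ran from 25.3% (untreated replicate 1) to 74.0% (RANKL+I-BET replicate 2). The extremes of the last measure fell on opposite sides of the comparison, as did the narrowest and the broadest libraries. Their median summed peak width per shared region was 634 bp (untreated replicate 1) and 1204 bp (RANKL+I-BET replicate 2). Background pileup was added to the fits below as a term, and the regions were also rebuilt from peaks with a −log10 q of at least 5.

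**Figure D1:**
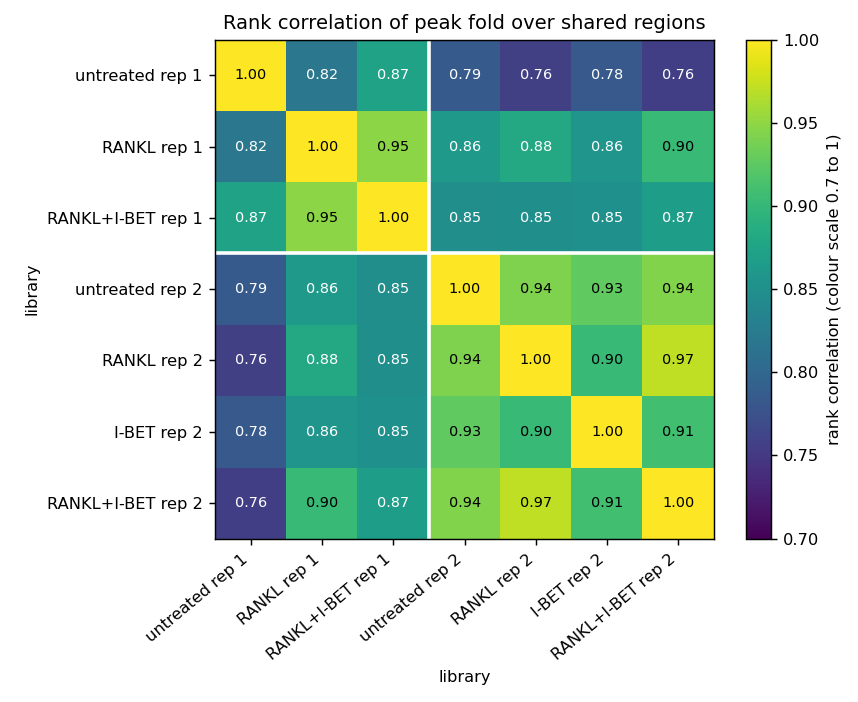
Rank correlation of fold percentiles between each pair of the 7 libraries, rows and columns ordered by replicate number, with the white lines between numbers 1 and 2 and a colour scale from 0.7 to 1. RANKL replicate 2 and RANKL+I-BET replicate 2 correlate at 0.97, and values that involve untreated replicate 1 go down to 0.76.

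Differences between the sides were small beside those between replicates. Over all regions, the mean of the I-BET libraries minus the mean of the others had a median absolute size of 3.28 percentile points for fold and 3.57 for width. For 90% of regions it lay between −9.36 and 9.54 points for fold, and between −11.2 and 12.05 for width. Replicates of 1 group differed by a median of 11.2 (untreated), 8.22 (RANKL) and 8.73 points (RANKL+I-BET) in fold. These are differences of single libraries, so part of their larger size comes from averaging on the other side of the comparison. Single libraries that shared a number avoid that averaging: RANKL+I-BET minus RANKL had a median absolute size of 5.26 points in replicate 1 and 4.04 in replicate 2, and I-BET minus untreated in replicate 2 had 6.42. All 3 of those were smaller than the difference between replicates of any group. They were taken within a replicate number, though, and the differences between replicates across numbers. Libraries resembled each other more within a number, so these kinds of difference are not like for like. For width the same 3 treatment differences were 5.79, 5.50 and 6.48 points, against 9.86, 6.73 and 8.69 between replicates.

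**Figure D2:**
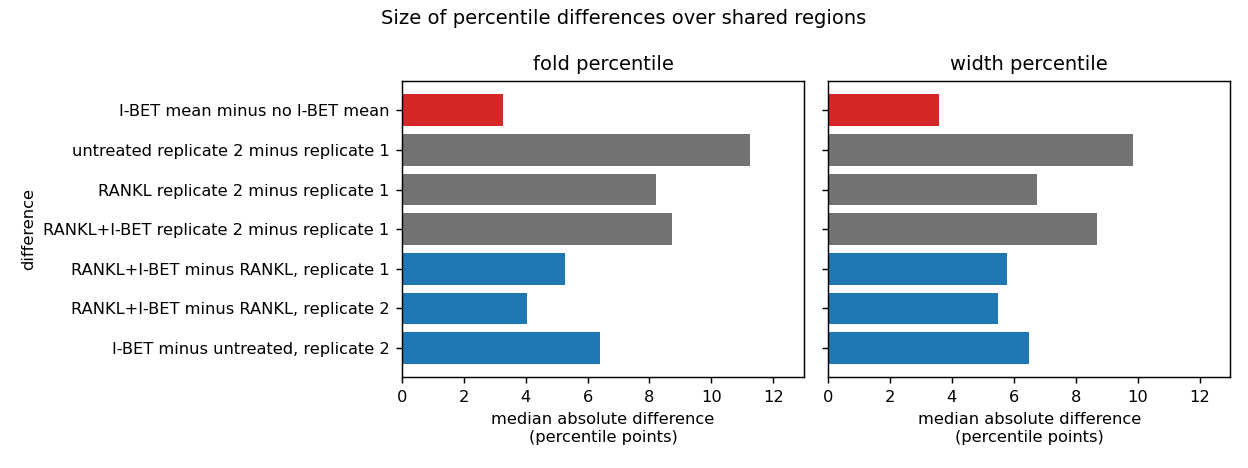
Median absolute difference in percentile points over 43170 shared regions, for fold (left) and width (right): the I-BET side mean minus the other side mean (red), replicate 2 minus replicate 1 within a group (grey), and a treated library minus its control of the same replicate number (blue). The red bars are 3.28 and 3.57 points, and every blue bar is shorter than every grey bar of its panel.

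No region passed the test across all shared regions in either measure. With limma's moderated test and Benjamini-Hochberg adjustment over 43170 regions, 0 ranked higher and 0 lower with I-BET at an adjusted p under 0.05 (0% in each direction). The smallest adjusted p was 1 for fold and 0.999977 for width. At an unadjusted p under 0.05 there were 104 regions higher (0.241%) and 127 lower (0.294%) for fold, and 413 higher (0.957%) and 364 lower (0.843%) for width. Both directions together made 0.535% of regions for fold and 1.80% for width. With no difference between the sides, a share of about 0.05 would be expected to pass unadjusted. This fit had no term for replicate number. The adjusted counts of 0 therefore do not show that I-BET made no difference. With the replicate number as a block the adjusted count was again 0 in each direction, and unadjusted counts were 297 and 320 for fold and 593 and 546 for width. The sides differ in RANKL (2 of 3 libraries with I-BET, 2 of 4 without) and in replicate number (2 of 3 and 2 of 4 are replicate 2). With both the block and RANKL as terms, 720 and 689 (fold) and 685 and 731 (width) passed unadjusted, and none adjusted. With background pileup as a term, and in each fit that left out 1 library, the adjusted count was 0 as well. A term for a different I-BET effect with and without RANKL passed in 0 regions in either measure.

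A second reading of the same ranks counts regions in which all 3 I-BET libraries lay above, or all below, all 4 libraries without it, so that the sides do not overlap; such regions are called separated. For fold 349 regions lay higher with I-BET (0.808%) and 431 lower (0.998%), and for width 533 higher (1.23%) and 658 lower (1.52%). In both measures at once 9 lay higher (0.0208%) and 13 lower (0.0301%), while 3 were higher in fold and lower in width and 3 the reverse. When the sides had to separate only within each replicate number, the counts were 1578 (3.66%) and 1788 (4.14%) for fold and 1603 (3.71%) and 1791 (4.15%) for width, with 115 (0.266%) and 150 (0.347%) in both. An exact two-sided permutation test over the 35 splits of 3 against 4 gives p = 0.0571 to every region separated over all libraries, the smallest it can reach, so no single region can pass 0.05 by it. If libraries could be swapped freely, a single split of the 35 would put the I-BET side highest and another lowest. Each share separated over all libraries was below that. Swapped only within a replicate number, the libraries have 18 splits, and 1 of them would put the I-BET side highest in each number. Each share separated within numbers was below 1 in 18. The number of separated regions was not tested.

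Most gaps were narrow. The gap is the lowest library of the higher side minus the highest of the lower side, and its median was 1.43 points for higher and 1.48 for lower fold, and 2.07 and 1.81 for width. Gaps of 10 points or more were found in 1 and 4 regions for fold and in 27 and 23 for width. At the boundary, 134 regions were apart by 1 point or less on the higher side of fold and 625 overlapped by 1 point or less. For lower fold these numbers were 163 and 579, for higher width 154 and 940, and for lower width 219 and 1095. Regions lower in fold sat low in the ranking, with a median of their mean fold percentile of 30.1 against 48.5 for all shared regions, and those higher in fold had 42.7. Of regions higher in fold 18.9% lay within 1 kb of a gene end, and of those lower in fold 28.1%, against 27.2% overall. For width these shares were 27.4% (higher) and 22.0% (lower).

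Among regions higher in fold, the widest gap was in chromosome X at 19202018 to 19203496, with no protein-coding gene within 100 kb. Its fold percentile was 25.6 and 20.7 in untreated replicates 1 and 2, 37.6 and 42.3 with RANKL, 55.0 with I-BET, and 52.7 and 52.3 with RANKL+I-BET. The I-BET libraries lay within 3 points of each other and 10.1 points above the RANKL library nearest to them. The difference was 21.8 points (SE 7.84). Each SE here and below is limma's moderated one, in which a region's spread is drawn toward that of other regions.

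Wipi1, which binds a phosphoinositide on forming autophagosomes, had a region 9571 bp from its gene body (chromosome 11, 109620960 to 109621900) at 20.3, 20.7, 6.44 and 11.01 in untreated replicates 1 and 2 and RANKL replicates 1 and 2. With I-BET it stood at 32.0, and with RANKL+I-BET at 32.6 and 30.6. The sides were 9.97 points apart, and the mean difference was 17.1 (SE 5.87). A second Wipi1 region, inside the gene (109584802 to 109585724), separated the other way, with 30.2, 40.6, 35.5 and 28.6 without the inhibitor and 22.6, 13.98 and 24.4 with it. So 1 gene held regions of both directions.

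Polr1a encodes the largest subunit of RNA polymerase I, the enzyme that transcribes ribosomal RNA genes. A region in its gene body on chromosome 6 (71927838 to 71928325) ranked at 8.78 and 8.88 untreated, 13.5 and 6.76 with RANKL, 22.6 with I-BET, and 22.4 and 21.5 with RANKL+I-BET. The mean was 22.2 ± 0.587 (SD, n = 3) against 9.48 ± 2.85 (SD, n = 4). A second Polr1a region (71961827 to 71964371) was also higher in fold, 77.3 ± 3.14 against 65.7 ± 10.6 with a gap of 0.821, but its width percentile was 73.9 ± 4.08 against 82.0 ± 11.1.

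The other 3 with wide gaps were near Arih2, a ubiquitin ligase, Cutc, a gene of copper handling, and Pcnx. In the Arih2 gene body the I-BET libraries stood at 31.2 to 35.05 and the others at 8.78 to 22.3. The Cutc region, 2581 bp from the gene, stood at 59.5 to 67.2 against 41.3 to 51.3. The Pcnx region ranged from 22.4 to 32.0 with the inhibitor and from 1.07 to 13.5 without. Fold ranks contain ties: shared regions took 208 distinct fold values in the I-BET library and 499 in untreated replicate 1, and the largest tie held 3.63% and 5.96% of regions. The I-BET library's value of 31.98 recurs for Wipi1, Arih2 and Pcnx.

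Regions lower in fold had the widest gap of that measure next to the type I interferon gene cluster. The region on chromosome 4 (88696214 to 88697567), 4946 bp from Ifnab, a member of the interferon alpha and beta family, ranked at 54.4 and 46.1 untreated, 38.5 and 38.2 with RANKL, 19.2 with I-BET, and 13.98 and 21.8 with RANKL+I-BET. All I-BET libraries were at least 16.4 points below the rest, and the difference was −26.0 points (SE 7.01). As the authors gave them, its highest folds were 7.05, 14.9, 8.60 and 12.8 without the inhibitor and 5.68, 4.47 and 9.03 with it, which overlap, since folds scale differently in each list. Its width percentile showed no separation, at 39.6 ± 28.2 (SD, n = 3) with and 39.7 ± 10.0 (SD, n = 4) without I-BET.

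The Fam204a region (chromosome 19, 60144284 to 60144945), which holds the start of E330013P04Rik printed above, had the largest mean difference of the named fold regions. It ranked at 60.1, 34.3, 41.3 and 36.1 in untreated replicates 1 and 2 and RANKL replicates 1 and 2, at 5.10 with I-BET, and at 10.5 and 25.0 with RANKL+I-BET. The difference was −29.4 points (SE 8.48) and the gap 9.24. RANKL+I-BET replicate 2 was the I-BET library nearest to the others.

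Fcsk, the fucose kinase gene, had a region across a gene end on chromosome 8 (110901619 to 110902802) at 60.1, 48.1, 48.7 and 56.2 without I-BET and 37.6, 35.1 and 36.95 with it. The gap was 10.5 points. Plxna2, a semaphorin receptor gene, held a region at 20.3, 27.1, 19.3 and 19.9 without and 8.45, 7.13 and 6.18 with I-BET. Eif1, whose protein helps select the start codon, lay 23716 bp from a region at 27.5 to 43.3 without and 2.32 to 17.4 with the inhibitor. Prkcb, a protein kinase C gene, held a region at 30.0 to 37.5 without and 15.6 to 20.9 with it. Width percentiles of the sides overlapped in all of these regions. The mean width percentile went the other way from fold at Plxna2, at 45.3 with and 31.5 without I-BET, and at Eif1, at 32.1 and 27.4. At Fcsk and Prkcb it was lower with I-BET.

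**Figure D3:**
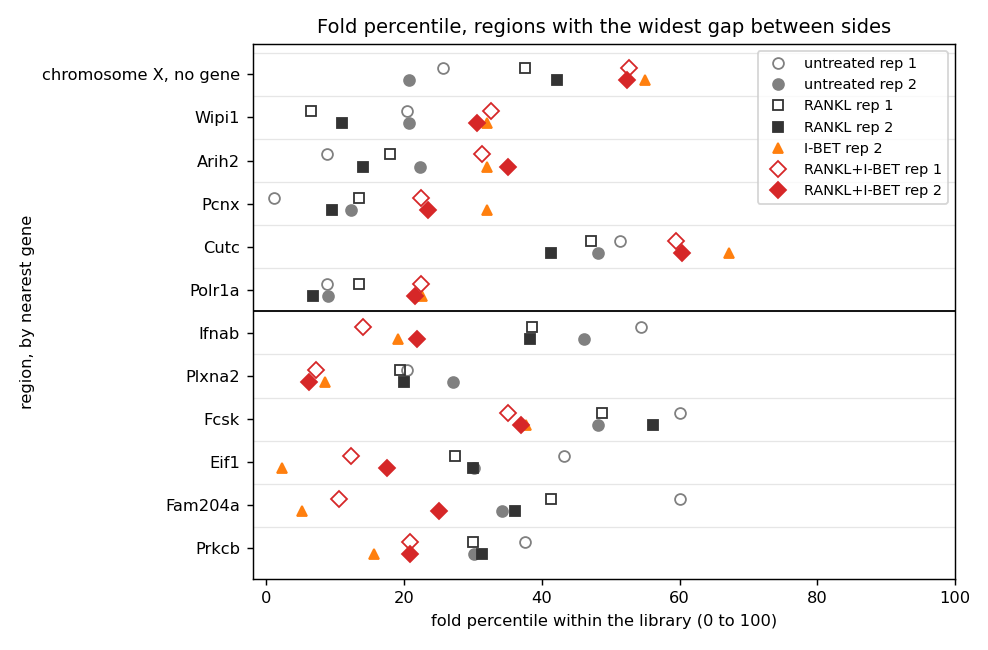
Fold percentile within the library (0 to 100) of the 12 regions with the widest gaps between the sides, 6 higher (above the line) and 6 lower with I-BET, each point 1 library, open for replicate 1 and filled for replicate 2. In the Ifnab row the 3 I-BET libraries sit at 13.98 to 21.8 and the other 4 at 38.2 to 54.4.

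The widest gaps of all were in peak width. A region on chromosome 14 (25379951 to 25381548), 76327 bp from Zmiz1, a transcriptional coregulator gene, ranked in width at 19.5 and 6.59 untreated, 21.5 and 12.3 with RANKL, 49.6 with I-BET, and 66.0 and 57.3 with RANKL+I-BET. The gap was 28.2 points and the difference 42.7 (SE 7.28). In bases, peaks covered 380, 421, 552 and 496 bp without the inhibitor and 790, 1126 and 1366 bp with it. Its fold percentile was 16.5 ± 10.6 (SD, n = 3) against 15.5 ± 5.84 (SD, n = 4), and those of the sides overlapped.

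Lpxn, which encodes leupaxin, an adaptor of adhesion sites, held a region (chromosome 19, 12797695 to 12799543) at 28.9 to 45.5 without and 64.7 to 73.8 with I-BET. Cdhr3, a cadherin-related gene, held one at 6.85 to 22.0 without and 43.8 to 63.5 with it. The other regions of this kind lay near Sptssa, a small subunit of the enzyme that starts sphingolipid synthesis, at 3.38 to 12.4 against 32.0 to 37.1, and in Nol6, a nucleolar protein gene, at 16.3 to 29.1 against 47.1 to 57.6. RANKL+I-BET replicate 2, on the I-BET side, was the library with the broadest peaks, and its part in these widths was not tested.

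Among regions lower in width percentile with I-BET the widest gap was near Etnk1, an ethanolamine kinase gene, at chromosome 6 (143220380 to 143222613). This region holds the start of LOC115490444 printed above. Its width percentile was 68.1 and 64.0 untreated, 78.5 and 52.1 with RANKL, 1.77 with I-BET, and 35.2 and 33.5 with RANKL+I-BET. In bases, peaks covered 180 bp with I-BET and 626 and 907 bp with RANKL+I-BET, against 949 to 1553 bp in the libraries without the inhibitor. The difference was −42.2 points (SE 10.6), with a gap of 16.9, and fold lay lower too, at 2.84 ± 2.43 (SD, n = 3) against 13.9 ± 3.02 (SD, n = 4).

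Gramd2 had a region 4129 bp away with width percentiles of 43.2, 34.4, 41.6 and 46.7 without and 7.78, 19.7 and 11.3 with I-BET. In Myo1d, a class I myosin gene, a region stood at 40.0 to 46.4 without and 13.2 to 25.8 with it. Map3k13, a kinase of the JNK pathway, held a region at 41.2 to 59.6 against 15.5 to 29.0. These 3 had overlapping fold percentiles, as did the region in Smarcal1, a DNA annealing helicase gene, where width stood at 17.1 to 29.4 without and 0.259 to 5.16 with the inhibitor. In bases of peak width the sides overlapped at Gramd2, Myo1d and Smarcal1, and did not at Map3k13.

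**Figure D4:**
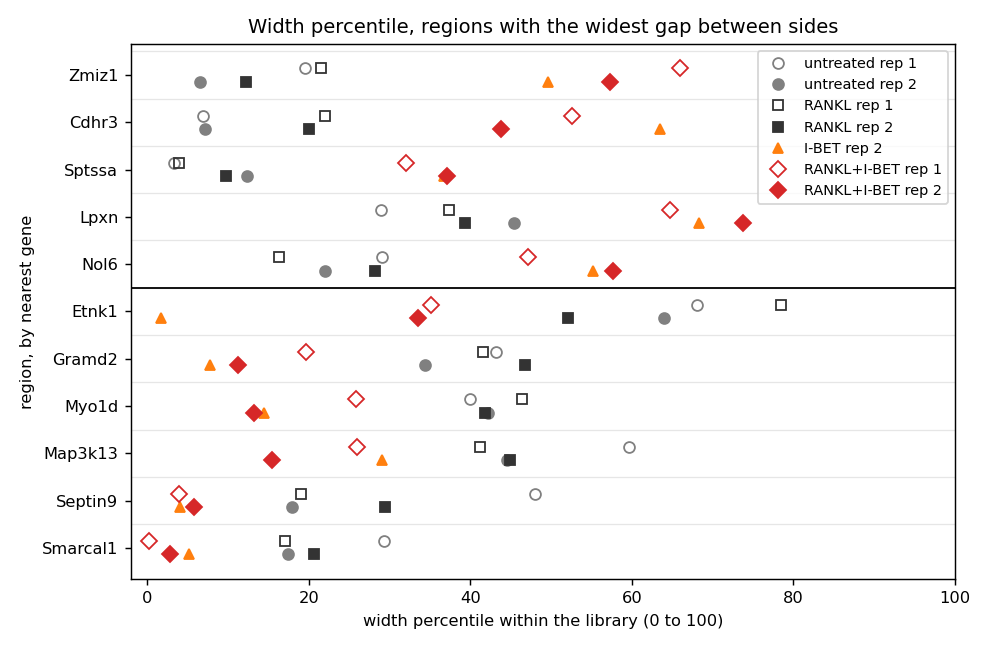
Width percentile within the library (0 to 100) of 11 regions with the widest gaps between the sides, 5 higher (above the line) and 6 lower with I-BET, each point 1 library, open for replicate 1 and filled for replicate 2. The Zmiz1 region runs from 6.59 to 21.5 in the 4 libraries without I-BET and from 49.6 to 66.0 in the 3 with it.

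Fold and width separated together, in the same direction, in 22 regions, 9 higher and 13 lower. The higher ones held 2 gene starts whose sequences stand above. Pip4p1, a phosphatase of lysosomal phosphoinositides, had its region (chromosome 14, 50929128 to 50932313) near the top of every library, with fold percentiles of 99.59, 99.61, 99.47 and 99.46 without and 99.79, 99.67 and 99.70 with I-BET. Width there was 88.7 ± 2.05 (SD, n = 4) without and 92.3 ± 0.797 (SD, n = 3) with the inhibitor. Ddx56, a nucleolar RNA helicase gene, had a region (chromosome 11, 6266590 to 6268838) at fold percentiles of 80.8, 81.5, 81.2 and 79.95 without and 82.5, 83.0 and 84.5 with it. Both shifts in fold were small, 0.188 points (SE 0.947) and 2.44 points (SE 2.69), each below its moderated SE. The libraries' own fold SDs were smaller than these SEs. They were 0.0615 with and 0.0808 without I-BET at Pip4p1, and 1.05 and 0.687 at Ddx56. With peaks of a −log10 q of at least 5 only, the width difference at Ddx56 was −0.306 points, in place of 7.35.

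Rc3h2, which encodes the mRNA-decay protein roquin-2, held a region (chromosome 2, 37375893 to 37376897) with fold percentiles of 14.6 to 32.5 without and 35.8 to 37.6 with I-BET, and width percentiles of 11.6 to 17.3 and 34.9 to 44.3. Cecr2, a bromodomain gene of chromatin remodelling complexes, held a region at fold percentiles of 3.95 to 13.5 and 19.2 to 32.0, and width percentiles of 3.37 to 14.5 and 15.8 to 42.6. Near Prrc2a, an RNA-binding protein gene, fold stood at 3.95 to 19.0 against 21.2 to 25.9, and width at 5.23 to 14.5 against 22.1 to 37.8. Tcf20, a transcriptional coregulator gene, and Zfp995, a zinc finger gene, had fold differences of 5.64 (SE 2.69) and 7.58 points (SE 5.35).

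Batf3, a transcription factor of the AP-1 family known for its part in dendritic cells, was the one member of the 11 pathway lists described below that separated in both measures in the same direction. The region lay 23712 bp from the gene (chromosome 1, 191132655 to 191133369). Its fold percentile was 0.102 and 2.03 untreated, 0.517 and 4.27 with RANKL, 5.10 with I-BET, and 5.50 and 8.70 with RANKL+I-BET. Its width percentile was 3.30, 3.03, 0.635 and 4.75 without the inhibitor and 7.37, 16.0 and 17.2 with it. This is among the weakest regions of every library, and the fold gap was 0.833 points.

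Regions lower in both measures that the rule named, beside that of Etnk1, lay near or in Septin9, Fabp3, Il12rb1, Zkscan17, Tbc1d8, Tex2 and Iqcd. Il12rb1 encodes a receptor chain for interleukins 12 and 23. Its region (chromosome 8, 70821454 to 70822159) had fold percentiles of 37.5, 23.9, 22.2 and 19.9 without and 11.97, 7.13 and 15.3 with I-BET, and width percentiles of 25.1, 24.5, 21.9 and 23.6 without and 14.9, 6.73 and 19.4 with it. The sides were 4.61 points apart in fold and 2.47 in width. In bases the sides overlapped, at 416, 579, 555 and 599 bp without and 449, 393 and 706 bp with I-BET.

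Fabp3, a fatty acid-binding protein gene, had a region 3550 bp away at fold percentiles of 14.6 to 23.9 without and 0.631 to 10.1 with I-BET, and width percentiles of 19.8 to 36.2 and 2.32 to 13.9. Septin9, a cytoskeletal GTPase gene, lay 22078 bp from a region at width percentiles of 17.9 to 48.0 and 3.92 to 5.81. In bases of peak width the sides overlapped at the Fabp3 and the Septin9 region. In the regions in Zkscan17, Tbc1d8, Tex2 and Iqcd the mean fold percentile was 6.604, 4.30, 1.85 and 11.7 with I-BET and 17.1, 9.84, 14.8 and 21.4 without. In bulk libraries a lower rank from fewer cells with the region open and one from less access per cell cannot be told apart.

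Genes of the BET and transcription elongation machinery were read next, since I-BET acts on their products. Of 82 shared regions near these 27 genes, 1 lay higher in fold (1.22%, against 0.808% of all regions), 0 lower, 0 higher in width and 2 lower (2.44%, against 1.52%), and the median fold difference was 0.59 points against 0.03 over all shared regions. Brd2 had 1 shared region, across its gene on chromosome 17 (34116604 to 34124372), with fold percentiles of 99.2, 92.6, 95.04 and 93.01 without and 94.98, 97.97 and 91.5 with I-BET. The difference there was −0.159 points (SE 2.13), and the sides overlapped.

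Hexim1, an inhibitor of P-TEFb whose transcript is a common readout of BET inhibitors, had 1 region over the gene, at fold percentiles of 99.6, 95.1, 98.4 and 97.5 without and 98.0, 99.6 and 97.7 with I-BET (difference 0.768, SE 1.36, exact permutation p = 0.629). The 3 regions of this list that separated were in Aff1, a scaffold of the super elongation complex, in fold (56.2 ± 1.30 with I-BET, n = 3, against 44.7 ± 10.1 without, n = 4, SD), and in Brd3 and Nelfa, a subunit of the pausing factor NELF, in width. Brd3 width was 86.5 ± 0.498 with and 90.6 ± 2.38 without I-BET, and Nelfa width 19.8 ± 11.3 and 33.6 ± 2.71.

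Myc, a gene whose transcription depends on BET proteins in many cell types, had 7 shared regions on chromosome 15, of which none separated in either measure. Over the gene itself (61983067 to 61988519) fold percentiles were 79.3, 68.5, 67.7 and 69.7 without and 71.0, 74.6 and 62.8 with I-BET. The 6 regions downstream, up to 88300 bp from the gene, had fold differences of −5.40 to 4.62 points. Among 78 regions of the Myc network and ribosome biogenesis list, 2 lay higher in fold (both at Polr1a) and 2 lower (2.56% each, against 0.808% and 0.998% of all regions). The lower ones were assigned to Max, 97511 bp away, and Mxi1, 6079 bp away, which encode the partner of Myc and a competitor for that partner. Max stood at 34.2 ± 4.57 with and 49.0 ± 5.81 without I-BET, and Mxi1 at 26.4 ± 6.56 and 38.9 ± 3.72 (SD, n = 3 and 4). With genes taken within 50 kb only, the Max region is lost and 1 lower region is left. In width 1 lay lower (1.28%, against 1.52%), at a gene end of Polr1b, another polymerase I subunit.

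Genes of the RANKL pathway and of osteoclasts were read in the same way. Of 135 regions on the osteoclast list, 0 separated in fold. In width 4 lay lower (2.96%, against 1.52% of all regions), in Tnfrsf11a and assigned to Prdm1 (67198 bp away), Dcstamp and Traf6, and 1 higher (0.741%, against 1.23%), 66616 bp from Atp6v1c1, a proton pump subunit gene. Within 50 kb the list has 3 lower and 0 higher in width. The region in Tnfrsf11a, the receptor of RANKL (chromosome 1, 105814400 to 105815409), had width percentiles of 47.7 and 52.2 untreated, 48.3 and 51.7 with RANKL, 20.3 with I-BET, and 30.2 and 37.7 with RANKL+I-BET. Its 4 values without I-BET lay within 5 points of each other, and those with it 10.0 points or more below, while fold percentiles were 45.5 ± 6.58 with and 45.3 ± 12.4 without.

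Dcstamp, which encodes a protein needed for osteoclast fusion, differed by −4.72 width points (SE 6.45), less than its SE. Nfatc1 had 11 regions, none of which separated, with a median fold difference of 1.35 points and a range from −10.8 to 7.23. Acp5 (the osteoclast phosphatase TRAP, 3 regions) and Ctsk (cathepsin K, 4 regions) had none either. Their regions varied widely within each side: at the Ctsk gene end fold stood at 53.0, 12.2, 39.5 and 11.01 without and 15.6, 64.7 and 10.7 with I-BET, higher in every replicate 1 library than in any replicate 2 library.

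Signalling genes upstream of Nfatc1 separated in both directions. In fold 4 of 118 NF-kB pathway regions lay lower (3.39%, against 0.998% of all regions) and 0 higher, near or in Nfkb1 (2), Traf3 and Map3k7. Nfkb1, which encodes the p105 precursor of the p50 subunit, had a region across a gene end (chromosome 3, 135690151 to 135692159) at fold percentiles of 77.1, 71.2, 70.5 and 70.6 without and 61.5, 65.9 and 65.3 with I-BET. The difference was −8.12 points (SE 4.98), and the gap 4.67. In width 1 of the 118 regions lay lower, a further one near Nfkb1 (0.847%, against 1.52% of all regions). Another 1 lay higher (0.847%, against 1.23%). Nfkbia, the inhibitor of NF-kB, had a region 5577 bp away that was broader, at 63.5 ± 5.74 with and 42.5 ± 12.2 without I-BET (SD, n = 3 and 4).

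Of 177 AP-1 and early response regions, 1 lay higher (0.565%, against 0.808% of all regions) and 3 lower in fold (1.69%, against 0.998%). In width 4 lay higher (2.26%, against 1.23%) and 4 lower (2.26%, against 1.52%). Fos, an AP-1 subunit, had 13 regions, and the one across the gene (chromosome 12, 85471609 to 85479927) ranked in fold at 94.0, 92.1, 92.1 and 91.5 without and 80.03, 90.5 and 88.2 with I-BET. The difference was −6.16 points (SE 2.61), of which the I-BET library, at 80.03, was the most distant. Klf2 and Spred1 were the others lower in fold. In width Fosl2, a further Fos and 2 Dusp1 regions lay lower, and Batf3, Dusp6, Klf6 and Ier3 regions higher. Some of these barely separated. The difference was −0.138 points (SE 0.545, gap 0.0417) at Fosl2 and −0.199 (SE 0.550, gap 0.0857) at the farther Dusp1 region. At Klf6 it was 7.55 points (SE 6.83, gap 0.441). Dusp1 and Dusp6 encode phosphatases that switch off MAP kinases, and their regions ranked in opposite directions in width, by −9.84 points (SE 4.35) at the nearer Dusp1 region and 10.8 (SE 4.24) at the Dusp6 region.

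Macrophage identity genes had shared regions at 27 of 28 genes, 206 in all, against 13840 of all 21887 coding genes. Markers of B cells had 10 regions at 6 of 10 genes, of T cells 14 at 7 of 10, of fibroblasts and osteoblasts 10 at 4 of 10, and of granulocytes and erythroid cells 8 at 6 of 10, and none of these 42 regions separated in any measure. B cell, T cell, and granulocyte and erythroid markers had a region about as often as all coding genes. A shared region near a marker is therefore no check of the line. Of the macrophage regions 2 lay higher (0.971%, against 0.808%) and 0 lower in fold, and 2 higher (0.971%, against 1.23%) and 6 lower (2.91%, against 1.52%) in width. The lower ones were near or in Cebpb, Tlr4, Fcgr3, Runx3, Cebpa and Irf8. Cebpb, a myeloid transcription factor gene, had a region 2811 bp away at width percentiles of 73.1, 48.0, 60.1 and 58.8 without and 14.6, 34.1 and 42.3 with I-BET. Tlr4, the receptor for bacterial lipopolysaccharide, had one at 59.1, 38.1, 54.8 and 38.4 without and 18.9, 13.7 and 27.5 with it. In bases the sides overlapped at the Cebpb region, at 884 to 1135 bp without and 447 to 1053 bp with I-BET.

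Irf8, a factor of the macrophage lineage that restrains osteoclast formation, had 12 regions, and its 2 separated regions went opposite ways. The region 38944 bp from the gene (chromosome 8, 120795638 to 120797284) was broader with I-BET, at 67.2, 54.1 and 67.9 against 44.4, 35.6, 18.04 and 44.6. The one 19126 bp away ranked lower in width by 4.60 points (SE 1.99). In bases its sides overlapped, at 1508, 1978, 2096 and 2158 bp without and 1503, 1797 and 2210 bp with I-BET. In fold, regions near Tlr2, another bacterial sensor, and in Runx2 lay higher, at 52.5 ± 14.5 against 30.7 ± 7.87 and at 41.1 ± 1.01 against 30.7 ± 7.56 (SD, n = 3 and 4).

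Of the other lists, oxidative phosphorylation (62 regions) had none that separated. Inflammatory cytokines (91) had 1 higher in fold, over Il10, and 1 lower, near Il1b (1.1% each, against 0.808% and 0.998% of all regions). Interferon response genes (75) had 1 higher near Ddx58 and 1 lower at Ifi44 (1.33% each), with 2 lower in width at Oasl1 and Irf2 (2.67%, against 1.52%). These shares rest on 1 or 2 regions each and are not results about the lists. Il10, which encodes an anti-inflammatory cytokine, had a region across the gene at fold percentiles of 30.2, 43.0, 36.5 and 45.9 without and 58.3, 48.3 and 50.1 with I-BET. Il1b, which encodes interleukin 1 beta, had one 8924 bp away at 74.4, 61.9, 60.1 and 60.5 without and 47.2, 58.4 and 54.1 with it. Lysosome and autophagy genes (95) had 1 higher (1.05%) and 2 lower in fold (2.11%), at Wipi1 and near Lamp1. Cell cycle genes (93) had 1 lower in fold (1.08%), in Ccnd3, and 2 lower in width (2.15%), near Cdkn2c and Ccnd1. Over the 11 pathway lists the median fold difference ran from −1.37 points (lysosome and autophagy) to 1.64 (inflammatory cytokine), against 0.03 over all shared regions. No list member passed limma's adjusted threshold.

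**Figure D5:**
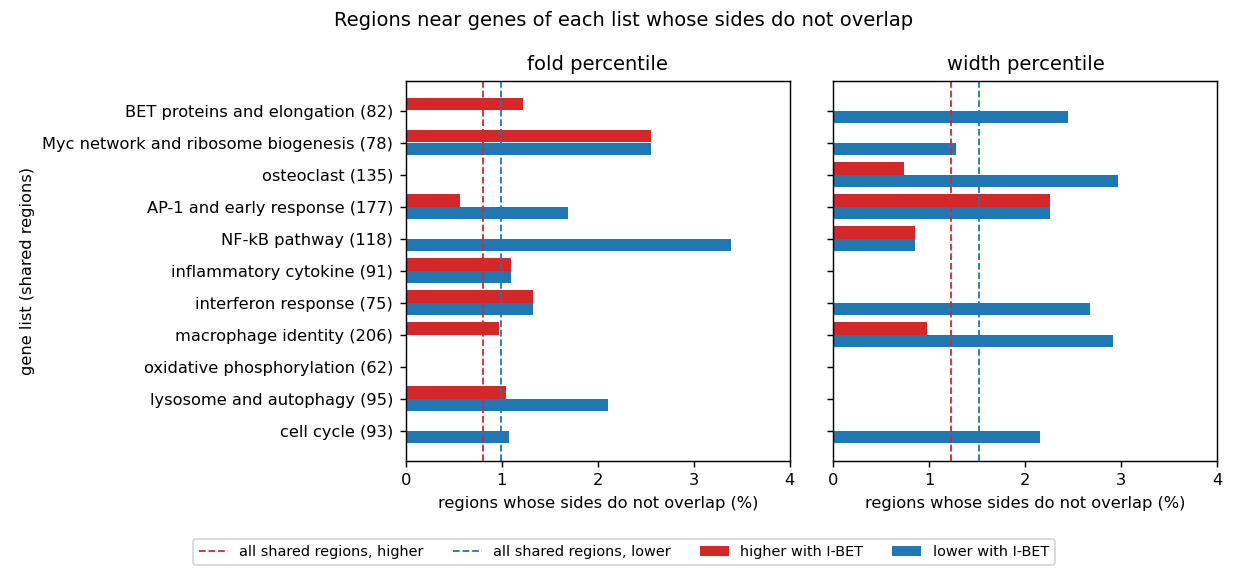
Share of shared regions near the genes of each of 11 lists whose sides do not overlap, in percent, for fold (left) and width (right), higher (red) or lower (blue) with I-BET, with the number of regions in brackets and the share over all shared regions as dashed lines. The longest fold bar is the 3.39% lower on the NF-kB list, which is 4 of 118 regions, and oxidative phosphorylation has no bar.

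Properties of a whole library were also compared, as 5 values per library with an exact two-sided permutation test over 35 splits. Regions within 1 kb of a gene end ranked in fold above those over 10 kb from any gene end, and the median percentile of the first minus that of the second was 42.3 and 34.5 points in untreated replicates, 33.8 and 32.1 with RANKL, 32.6 with I-BET, and 37.2 and 30.7 with RANKL+I-BET. With I-BET it was 33.5 ± 3.38 (SD, n = 3) and without 35.7 ± 4.55 (SD, n = 4), p = 0.629 by the exact permutation test. In width it was 37.5 ± 0.644 and 37.7 ± 0.838, p = 0.743 by the exact test. Broad regions, 759 of 5 kb or more, had a median fold percentile of 87.9 ± 1.44 with I-BET and 87.7 ± 2.08 without (exact p = 1).

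Peaks per shared region numbered 1.25 ± 0.160 with I-BET (SD, n = 3) and 1.27 ± 0.0243 without (SD, n = 4), with an exact permutation p of 0.857. The I-BET libraries held both extremes, 1.37 (I-BET) and 1.07 (RANKL+I-BET replicate 2), the latter being the library with the broadest peaks. Broad regions took 7.70% ± 0.245 of peak width in shared regions with I-BET and 7.84% ± 0.379 without (SD, n = 3 and 4, exact p = 0.514). After Benjamini-Hochberg adjustment over the 5 values every p was 1, and none of the differences was larger than the spread between libraries of 1 side.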

How the data were processed

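ATAC-seq peak lists of 7 libraries (paired reads of 100 bp from 50000 cells each, per the labels' protocols) were used. Per the submitters' processing notes, the tools included cutadapt, Bowtie2, Picard, SAMtools and MACS2 on mm10, with versions and settings not given in the sources used here. The authors deposited a separate list for each library, without pooling. Beside its position, a deposited peak carries a score, a fold (pileup over local background, a ratio), and its p and q as −log10 values, all the authors' own and used only to rank or filter peaks within 1 list. Read depth is unknown. Background pileup was inferred from the deposited fold and −log10 p, and ranks by fold and by −log10 p were identical.

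Regions were joined with bedtools 2.31.1, and ties took mean ranks. Percentiles were compared with limma 3.58.1 (R 4.3.3, intensity trend), tested on simulated data. The error was limma's moderated SE, in which each region's spread between libraries is drawn toward the trend over all regions. Regions were named by the closest gene body within 100 kb among 21887 coding genes in RefSeq (GRCm38.p6); exon and UTR positions were not used here. Of 334 list genes 332 were among the RefSeq genes. Samples of the same replicate number deviated together (correlations 0.44, 0.63 and 0.66 for fold and 0.24, 0.36 and 0.36 for width), so the numbers were taken to pair the samples.

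Named regions were the 6 per measure and direction with the widest gap and the 8 per direction separated in both measures with the largest smaller gap, 1 per gene. List members separated in both measures (at most 4 per list and direction) and Nfatc1, Fos, Myc, Irf8, Brd2, Hexim1, Acp5 and Ctsk were named too. Some genes that these rules name are not reported here. Other list members are named because their counts are small, after their values were seen. The comparison, members, lists and rules were chosen with earlier results of these data known. Alternatives were leaving out each library, peaks covering 50% of a region, a −log10 q of at least 5, the replicate block, RANKL or background pileup as a term, normal scores, RANKL-treated libraries only, regions under 2 kb, −log10 p for fold, gene ends within 500 bp, broad regions of 3 kb and genes within 50 kb. The joint block and RANKL terms, the block without untreated replicate 1 and the interaction were chosen after seeing the data.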

Additional observations from a re-analysis of the deposited data

Results flagged for a closer look

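In 5 of 81 groups of 4 or more libraries checked, 1 library without I-BET lay far from the other 3 on the fold percentile. Chance flags about 1 in 20 unselected groups. That rate need not hold here, since the named regions were picked by their ranks. In 4 of the 5 it was untreated replicate 1, the library in which the smallest share of peaks reached a −log10 q of 5. Untreated replicate 1 stood at 43.3 at the Eif1 region, where the other 3 were at 27.5 to 30.1. At the Prkcb region it stood at 37.5 and the other 3 at 30.0 to 31.3. At the Zkscan17 region it stood at 30.2 and the others at 12.0025 to 14.04. At the Tex2 region it stood at 37.5 and the others at 4.48 to 9.05. The exception was the Plxna2 region, where untreated replicate 2 stood at 27.1 and the other 3 at 19.3 to 20.3. In all 5 regions the library lay on the side away from the I-BET libraries, so the sides separate without it, but the mean difference includes it.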

How the results depend on the processing

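The counts of regions past limma's adjusted threshold were 0 in each direction under every alternative run, so only unadjusted counts varied. Counts of separated regions depend on how many libraries must separate. Leaving out 1 library in turn gave 723 to 1844 regions higher and 813 to 2271 lower in fold, 1046 to 2496 higher and 1266 to 2449 lower in width, and 36 to 211 higher and 54 to 238 lower in both; fewer libraries must then separate. The replicate block (separation within each number) gave 1578 and 1788 for fold, 1603 and 1791 for width, and 115 and 150 for both, and changed no other call. With peaks covering 50% of a region (20364 regions) 156 lay higher and 192 lower in fold, and 357 higher and 346 lower in width, where higher outnumbered lower, the reverse of 533 and 658. With a −log10 q of at least 5 (27364 regions) these were 206, 237 and 398, with 332 higher in width and 2 lower in both. Fewer regions were compared in these 2 settings, so a smaller count there need not be a smaller share.

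Library-level differences changed sign easily, as none exceeded its error. Leaving out 1 library gave −4.06 to 0.0278 points (gene-end minus distal, fold), −0.591 to 0.187 (width), −0.604 to 1.03 (broad regions, fold), −0.0766 to 0.0744 peaks per region and −0.322 to 0.0014 percentage points of width in broad regions. The signs turned without untreated replicate 1 (both gene-end values, and broad fold at −0.0961), RANKL replicate 1 (broad fold), RANKL+I-BET replicate 2 (broad fold at −0.362, peaks per region) and RANKL+I-BET replicate 1 (share of width). They also turned for gene-end width at 50% cover (0.00389) and broad fold at 3 kb (−0.243). Of 851 alternative values of named regions 1 changed sign, the width difference at Ddx56 (−0.306 at a −log10 q of at least 5). The cause was not tested. Ties limit fold ranks, and the largest held 5.96% of regions in untreated replicate 1 and 3.63% in the I-BET library.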

Other observations

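Genes with several separated regions, chosen after their values were seen, were counted over both measures. Of genes with a separated region, 40 of 801 had 2 or more higher and 53 of 998 had 2 or more lower. With 3 higher were Calcrl (of 5 shared regions), a receptor chain for adrenomedullin, Chd2 (of 16), a chromatin remodeller, Fbxw7 (of 15), a ubiquitin ligase subunit that targets Myc, and Prune2 (of 16). With 3 lower were Nfkb1 (of 12), Snx10 (of 10), a sorting nexin needed by osteoclasts, Syne3 (of 11) and Nav2 (of 24, with 1 more region higher). Genes with more shared regions have more chances to hold a separated one.

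Regions that separated within each replicate number were also read, again chosen after their values were seen. The Ptprc region across a gene end (chromosome 1, 138174017 to 138176137), the gene of the leukocyte antigen CD45, ranked in fold at 55.7 untreated, 54.6 with RANKL and 68.1 with RANKL+I-BET in replicate 1. In replicate 2 it ranked at 28.7, 49.9 and 57.5, and at 71.01 with I-BET. A Sema3c region (17714622 to 17715459 on chromosome 5) ranked at 8.78, 38.5 and 55.98 in replicate 1 and at 25.5, 19.9 and 37.2 in replicate 2, with 40.2 in the I-BET library. Here the RANKL library of replicate 1 lay above RANKL+I-BET replicate 2, so the sides overlap when numbers are ignored. Lower with I-BET in this reading was a region in Map3k5, a stress kinase gene, at 20.3, 10.5 and 0.730 in replicate 1 and 23.9, 33.7 and 12.6 in replicate 2, with 11.97 in the I-BET library. All of these had a limma adjusted p of 1, also with the replicate block.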
